A study of Mus musculus with 42 samples.

Results

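The transcripts of the cytosolic ribosomal proteins were followed over the day in macrophages of old and young mice. The genes were chosen by name and level, not by how they changed. A member is a protein-coding gene whose mouse symbol is Rpl or Rps followed by a number (with the usual suffixes), or is Rpsa, Rplp0, Rplp1 or Rplp2, and whose mean is at least 10 in the table of each age. Of 47643 genes in both tables, 88 had such a name, 83 of those were protein-coding, and 78 were members. They comprise 30 proteins of the small subunit, 42 of the large subunit, 3 of the ribosomal stalk (Rplp0, Rplp1 and Rplp2) and 3 paralogues (Rps27l, Rpl22l1 and Rpl7l1).

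Macrophages came from old (18 to 20 months) and young (2 to 3 months) C57BL/6 mice, with no other genotype or treatment given. Cells were harvested every 4 h at 7 zeitgeber times (ZT, counted in hours from lights on), ZT0 through ZT24, and each age and time had 3 libraries, 42 in total. Neither the tissue nor whether replicate libraries came from separate animals is stated in the labels, so the p-values may reflect technical spread alone. QuantSeq libraries, which read each transcript at its 3' end, were used, so that levels do not depend on gene length.

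A cytosolic ribosome holds about equal numbers of each of its proteins, and cells make them together. Their messenger RNAs typically begin with a C followed by a run of pyrimidines, the 5' terminal oligopyrimidine (TOP) tract, through which the kinase complex mTORC1 and the RNA-binding protein LARP1 control their translation. Translational control of this kind need not change the RNA level, which is what was measured here. In macrophages, ribosome production supports growth, division and the burst of protein secretion after activation.

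The promoters of the members that differed by age or over the day are shown because the first transcribed bases carry the TOP tract. Each window runs from 30 bases before to 15 bases after a RefSeq transcript start on GRCm38.p6, 5' to 3' on the strand of the gene. Capitals mark a run of at least 5 pyrimidines that starts with C within 5 bases of the start.
Rpl39 (chrX:37085208-37085252, minus strand): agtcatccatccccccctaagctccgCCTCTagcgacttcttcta
Rpl37 (chr15:5116583-5116627, plus strand): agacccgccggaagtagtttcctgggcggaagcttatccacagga
Rps27l (chr9:66946056-66946100, plus strand): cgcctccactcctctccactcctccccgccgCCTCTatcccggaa
Rpl27a (chr7:109519165-109519209, plus strand): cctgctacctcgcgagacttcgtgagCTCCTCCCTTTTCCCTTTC
Rpl38 (chr11:114668550-114668594, plus strand): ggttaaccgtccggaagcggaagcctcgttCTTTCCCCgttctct
Rpl9 (chr5:65391417-65391461, minus strand): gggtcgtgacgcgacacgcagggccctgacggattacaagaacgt
Rpl12 (chr2:32961682-32961726, plus strand): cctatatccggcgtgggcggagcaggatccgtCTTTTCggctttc
Rps16 (chr7:28350659-28350703, plus strand): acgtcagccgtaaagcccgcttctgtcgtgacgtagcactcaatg

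The run was present in the printed windows of Rpl39, Rps27l, Rpl27a, Rpl38 and Rpl12, and in Rpl27a it went on to the end of the window. Rps27l has a second RefSeq start, with its window at chr9:66946383-66946427 and no such run. No such run was found in the windows of Rpl37, Rpl9 and Rps16, which says only that these letters are not at the RefSeq start used. Members of both directions of change, described below, were among those with a run. RefSeq promoters were matched for 58 of the 78 members, with 69 starts. A run of this kind was found at 30 of the 69 starts (43.5%), against 18.3% of 32851 RefSeq promoters. The core CGGAAG, the letters bound by ETS-family factors, was searched on both strands from 250 bases before to 50 bases after the start, independently of the run. It was found in 42 of the 69 promoters (60.9%), against 16.9% of all promoters. A match is a description of the letters and not a bound site.

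Values are given as rescaled reads, the reads of all 42 libraries put on 1 scale by the median of ratios. By this measure the members spanned a wide range of levels. Rplp1, which with Rplp2 forms the stalk that recruits elongation factors, averaged 16509 ± 2560 in old and 16064 ± 1911 in young libraries (SD, n = 21 each). The lowest member was Rpl10a, with a mean of 20.0 in old and 18.5 in young libraries. The median member had 756 rescaled reads in old and 820 in young libraries. The 10 highest members held 54.0% of the summed means in old and 53.6% in young libraries.

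Levels were set beside how unique each 3' end is among annotated genes. For each gene, stretches of 50 bases were taken from the last 200 bases of 1 coding transcript (GENCODE M21, GRCm38) and looked for in other annotated genes. In 29 members 50% or more of these stretches also occurred elsewhere, in 18 members under 50% did, and in 31 members none did. Median deposited values in the old and young tables were 306 and 357 for the 29 members, 3011 and 3488 for the 18, and 658 and 938 for the 31. Rps6, the small subunit protein phosphorylated by S6 kinase, shared 72.2% of its stretches and had a mean of 2.70 in the old and 4.20 in the young table, so it was not a member. Rpl24 shared 68.9% and had 4.53 in the old and 3.10 in the young table. Rpl28 (19.3 in the old and 24.5 in the young table) and Rps7 (52.8 and 64.5) shared none and were low all the same. Whether shared ends lowered a count was not tested, and values of members with shared ends are uncertain where the counting split such reads.

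The threshold on the mean removed 5 protein-coding genes. Besides Rps6 and Rpl24 these were the tissue-restricted paralogues Rpl10l (0 in the old and 0.0458 in the young table), Rpl3l (2.70 and 1.20) and Rpl39l. Rpl39l, at 9.23 in the old and 14.04 in the young table, was just outside. Just inside were Rpl10a (18.4 in the old and 20.1 in the young table), Rpl28, Rps27a (19.5 and 29.3) and Rpl36 (20.3 and 24.3). A further 5 genes with matching names were pseudogenes.

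The first comparison asked whether the mean level over the day differed between ages. The set as a whole was nearly level. The median log2 difference, old minus young, was 0.0059 over the 78 members, against 0.0033 over the 12086 genes tested. With scaling to the total the median of the members was -0.01. The difference was above zero in 41 members and below zero in 37. The median size of the difference, whatever its sign, was 0.07 on the log2 scale in members, against 0.13 over all genes. The 95% interval of the difference lay within 0.5 of zero for 70 members (89.7%), against 69.4% of all genes. This bound was chosen after the values were seen. Members also varied less between libraries of 1 group, with a median SD of 0.24 on the log2 scale, against 0.29 over all genes, at a median log2 level of 9.60, against 7.64.

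Of the 78 members, 2 were higher and 5 were lower in old macrophages by limma at a Benjamini-Hochberg adjusted p under 0.05. These are 2.56% and 6.41% of members, below the shares over all genes, of which 12% were higher and 11.7% were lower. The folds of these 7, old over young, lay between 0.804 and 1.14. Without the ZT0 libraries 8 members (10.3%) were lower by limma, with Rps16 and Rps2 among the added ones, against 11.1% of all genes. By role, none of the 30 small subunit members and none of the 3 stalk members was called. Of the 42 large subunit members 2 were higher and 4 lower, and of the 3 paralogues 1 was lower.

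**Figure D1:**
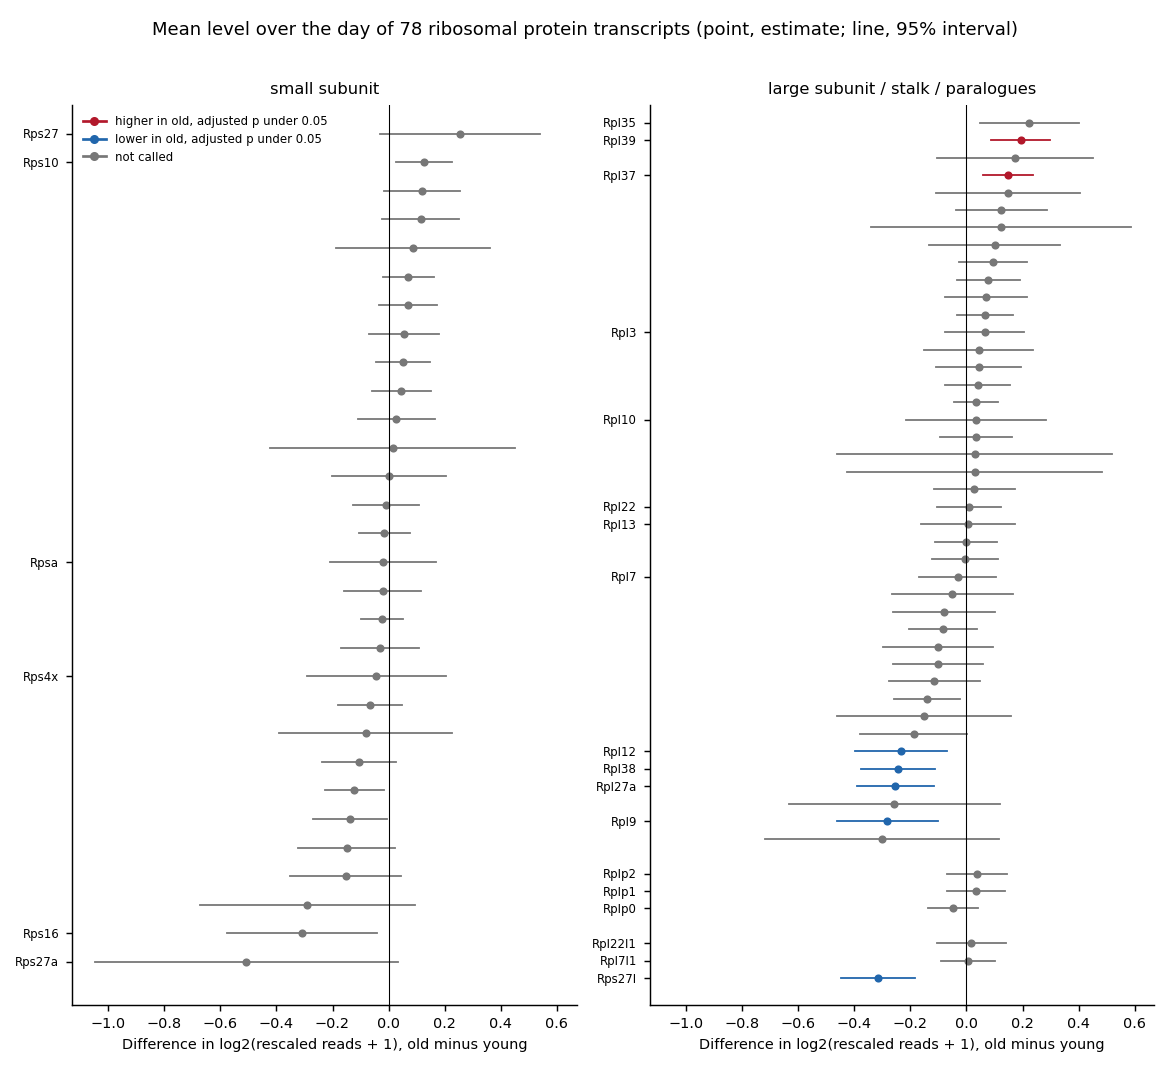
Difference in mean level over the day, old minus young, for each of the 78 members on the log2(rescaled reads + 1) scale (point, estimate from 42 libraries; line, 95% interval), small subunit at the left and large subunit, stalk and paralogues at the right. Rpl39 and Rpl37 are the 2 members called higher in old and Rpl12, Rpl38, Rpl27a, Rpl9 and Rps27l the 5 called lower, while most other intervals cross zero. Only some members are labelled by name.

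Rpl39, a small protein that lines the exit tunnel of the large subunit, rose in old macrophages. Its lowest, median and highest libraries had 859, 1176 and 1382 rescaled reads in old, against 830, 1022 and 1229 in young macrophages. The ages overlapped, but 10 of 21 old libraries were above the highest young library, and the old mean was higher at all 7 times. The fold was 1.14, a log2 difference of 0.19 ± 0.05 (SE; limma, adjusted p = 0.00491). With marker scores of B and T/NK cells as covariates, described below, the log2 difference was 0.13 and the call ended (limma, adjusted p = 0.389).

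Rpl37, another large subunit protein, also rose. It had 2461, 3281 and 4308 rescaled reads in the lowest, median and highest old library, against 2656, 2844 and 3644 in young libraries. The old median was above most young values, and the old mean was higher at 6 of 7 times. The fold was 1.11, a log2 difference of 0.15 ± 0.04 (SE; limma, adjusted p = 0.0103). The call ended without the libraries of ZT8 (log2 difference 0.11, limma adjusted p = 0.0883) and with the same covariates (log2 difference 0.08, limma adjusted p = 0.554).

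Rps27l, the paralogue of Rps27 and in human cells a target of the tumour suppressor p53, fell by 0.32 ± 0.06 on the log2 scale (SE; limma, adjusted p = 0.000265). With the B and T/NK marker scores described below as covariates the log2 difference was -0.16 and the call ended (limma, adjusted p = 0.370). Its lowest, median and highest libraries had 492, 716 and 1022 rescaled reads in old, against 691, 840 and 1056 in young macrophages. Of the 21 old libraries 10 were below the lowest young library, and the old mean was lower at all 7 times. Its main copy Rps27 had 38.0, 55.6 and 96.6 rescaled reads in old, against 19.0, 51.8 and 77.0 in young macrophages. That difference pointed upwards (log2 0.25 ± 0.14, SE) and did not pass the test (limma, adjusted p = 0.202). All stretches of the Rps27 end are shared with other genes and none of those of Rps27l are. The difference between the 2 paralogues was not tested.

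Rpl27a, a large subunit protein, fell by 0.25 ± 0.07 on the log2 scale (SE; limma, adjusted p = 0.00448). It had 323, 517 and 724 rescaled reads in the lowest, median and highest old library, against 486, 609 and 789 in young libraries. In old macrophages 7 of 21 libraries were below the lowest young one.

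Rpl38, which in mouse embryos is needed for the translation of Hox messenger RNAs, fell by 0.24 ± 0.07 (SE; limma, adjusted p = 0.00487). Its libraries had 1007, 1446 and 1778 rescaled reads (lowest, median and highest) in old, against 1280, 1651 and 2308 in young macrophages. The young libraries reached higher, with 5 of 21 above the highest old one. Its end shares 72.8% of its stretches with other genes.

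Rpl9 fell by 0.28 ± 0.09 on the log2 scale (SE; limma, adjusted p = 0.0165). It had 107, 177 and 259 rescaled reads in the lowest, median and highest old library, against 142, 216 and 287 in young libraries. All stretches of its end also occur in other annotated genes, so reads of those genes may be counted with its own, which was not tested. The call ended without the libraries of ZT24 (log2 difference -0.26, limma adjusted p = 0.0511).

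Rpl12, which joins the base of the stalk to the ribosomal RNA, fell by 0.23 ± 0.08 on the log2 scale (SE; limma, adjusted p = 0.0303). It had 160, 285 and 385 rescaled reads in the lowest, median and highest old library, against 230, 310 and 422 in young libraries. The call was close to the threshold and ended without ZT24 (limma adjusted p = 0.110) or ZT8 (limma adjusted p = 0.0602). It also ended without any 1 of old ZT4 replicate 2, old ZT16 replicate 3, young ZT12 replicate 1, young ZT16 replicate 2, young ZT20 replicate 1 and young ZT24 replicate 2 (limma adjusted p from 0.0501 to 0.0597).

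**Figure D2:**
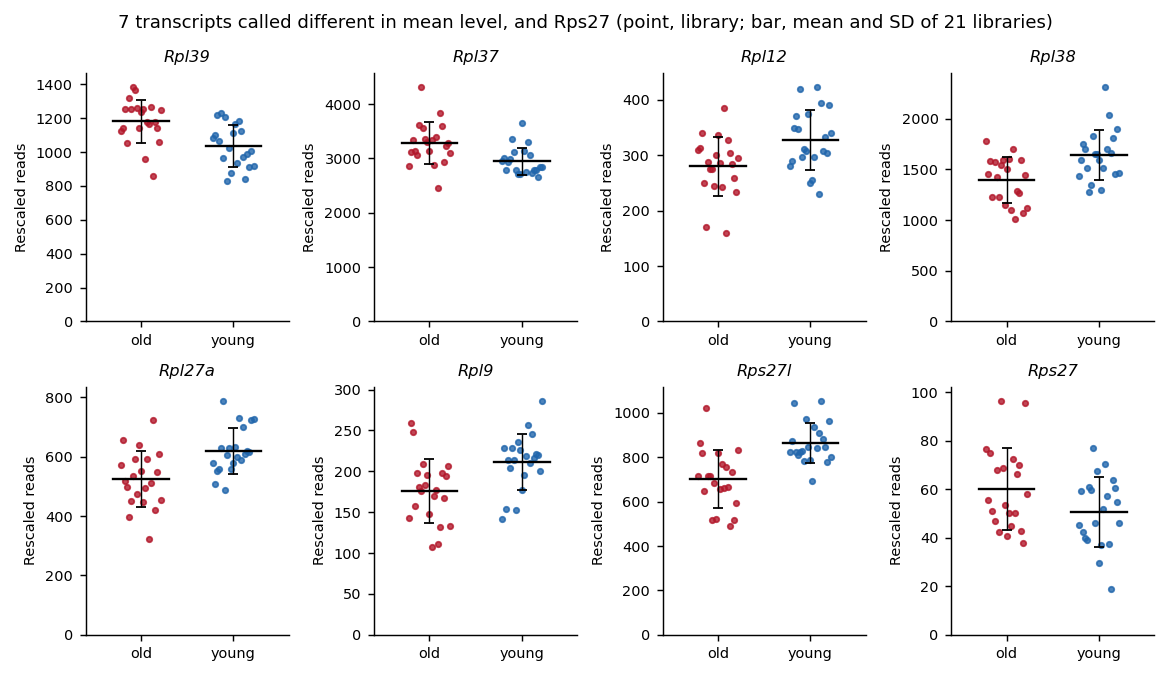
Rescaled reads in each of the 21 old (left in each panel) and 21 young libraries (right) for the 7 members called different in mean level and for Rps27 (point, library; bar, mean and SD). The ages overlap in every panel, and the shift of the mean is smaller than the range of either age.

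Other members near the threshold give values only. Rpl35 had a log2 difference of 0.22 (limma, adjusted p = 0.0585) and Rps10 one of 0.13 (limma, adjusted p = 0.0629). In the other direction, Rpl31 had one of -0.14 (limma, adjusted p = 0.0767) and Rps2 one of -0.12 (limma, adjusted p = 0.0852). With array weights Rps10 and Rpl31 were called (limma, adjusted p = 0.0459 and 0.0351). These members were chosen here after their values were seen. Rps27a, which is made as a fusion with ubiquitin, had the most negative estimate (log2 difference -0.51), but at means of 21.2 in old and 27.0 in young libraries its interval ran from -1.05 to 0.03.

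The stalk, the remaining paralogues and their main copies did not pass the test. The log2 difference was -0.05 for Rplp0, 0.03 for Rplp1 and 0.04 for Rplp2, with interval bounds from -0.14 to 0.14. Rpl22l1, the paralogue of Rpl22, averaged 797 ± 114 in old and 786 ± 109 in young libraries, and Rpl22 averaged 6302 ± 740 and 6265 ± 795. Rpl7l1 averaged 856 ± 82 in old and 852 ± 73 in young libraries, and Rpl7 averaged 600.2 ± 95 and 610.3 ± 77. Rpsa, known also as a laminin receptor, averaged 612 ± 129 in old and 627 ± 168 in young libraries. The log2 differences of Rpl3, Rpl10 and Rps4x, main copies of the other paralogues, were 0.07, 0.04 and -0.04.

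Other cells and the cell cycle moved with age. Of the markers of B cells 9 of 10 were higher in old libraries, with summed levels of 550 to 2468 CPM (reads scaled to the library total) in old, against 567 to 1071 CPM in young. Of those of T and NK cells 7 of the 8 tested were higher (68.6 to 282 CPM in old, against 75.1 to 145 in young libraries). All 8 cycling genes were lower (44.6 to 487 CPM in old, against 299 to 1053 in young libraries). Macrophage markers were high at both ages, at 22578 to 37131 CPM in old and 27063 to 40108 CPM in young libraries, with 1 of 10 higher and 3 lower. Markers of mesothelium and fibroblasts were low, with summed levels of 2.74 to 18.2 CPM in old, against 0.0973 to 3.40 CPM in young libraries, and 8 of 10 were under 1 CPM in both ages. The 2 that were tested were both higher in old, Krt18 (log2 difference 2.50, limma adjusted p = 3.91e-06) and Dcn (log2 difference 3.35, limma adjusted p = 2.25e-09). Of the markers of dendritic cells 3 of the 5 tested were lower (25.3 to 84.9 CPM in old, against 46.3 to 89.4 in young libraries). Among 8 mast cell markers 1 was higher and 1 lower, and among 4 neutrophil markers tested 1 was higher and 2 were lower. The part of mesothelium, fibroblasts, dendritic cells, mast cells and neutrophils in the differences of the members was not tested. In bulk samples fewer cells of a type and less RNA per cell cannot be told apart.

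With B and T/NK marker scores as covariates, no member was higher in old and 3 were lower by limma. Over all genes 5.29% were then higher and 5.68% lower. The 3 were Rpl38 (log2 difference -0.30, limma adjusted p = 0.0198), Rpl12 (-0.40, limma adjusted p = 0.0299) and Rps16 (-0.67, limma adjusted p = 0.0153). Without the covariates the log2 differences were -0.24, -0.23 and -0.31, and Rps16 was not called. Rps16 was far below the rest in old ZT8 replicate 1. Without that library its log2 difference, with no covariates, was -0.18, and the fit with covariates was not repeated. Besides Rpl39, Rpl37 and Rps27l, the calls of Rpl27a (log2 difference -0.29, limma adjusted p = 0.0814) and Rpl9 (-0.19, limma adjusted p = 0.457) ended with the covariates. The median log2 difference over members was then -0.09 by limma, against -0.005 over all genes, of which 1325 were called. The scores themselves differ between ages, so age and these scores cannot be fully told apart. The part of cycling cells was not tested.

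The second comparison asked how the members behave over the day. Each library's reads in the 78 genes made up 1.85% to 3.02% of all its reads in old (median 2.18%) and 2.00% to 2.71% in young macrophages (median 2.17%). The highest share was in an old library of ZT8 (replicate 2) and the lowest in an old library of ZT16 (replicate 3). At ZT8 the share was 2.68% ± 0.30 in old and 2.26% ± 0.24 in young macrophages (SD, n = 3 each). At ZT16 it was 2.04% ± 0.17 in old and 2.28% ± 0.25 in young macrophages. The 3 old libraries of ZT8 also had summed B cell markers of 1462, 2468 and 1478 CPM, the second of which was the highest of all 42 libraries. The part of B cells in the ZT8 share was not tested by itself.

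**Figure D3:**
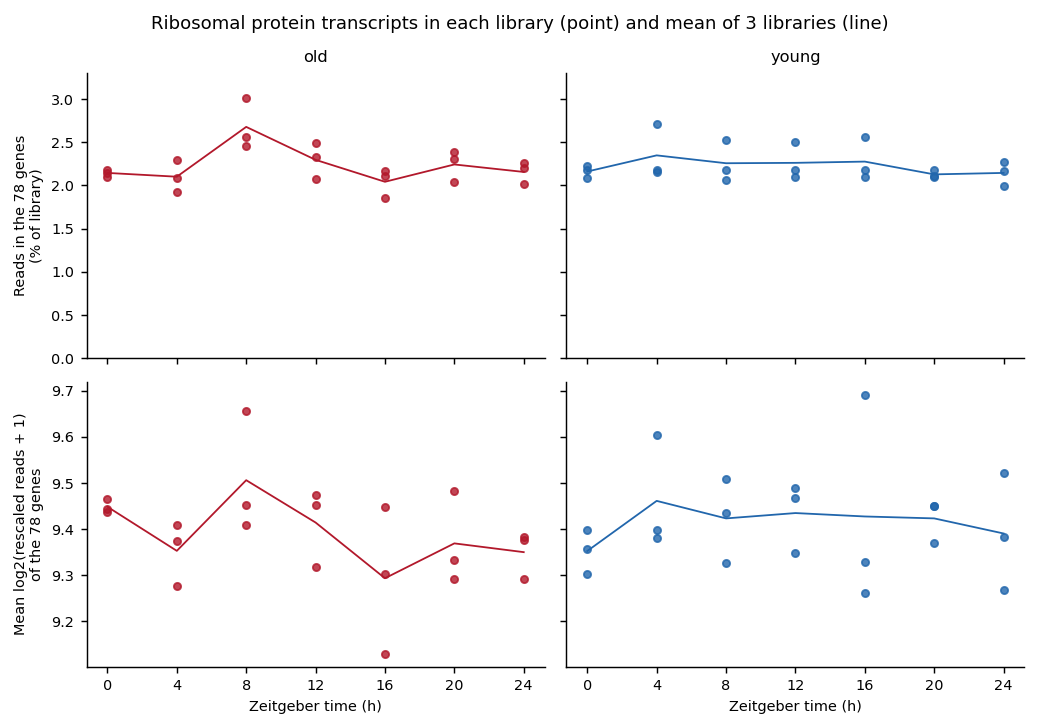
Reads in the 78 genes as a percentage of each library (top) and mean log2(rescaled reads + 1) of the 78 genes (bottom) by zeitgeber time, old at the left and young at the right (point, library; line, mean of 3). The 3 old libraries of ZT8 stand at 2.46% to 3.02%, and the other group means in old lie between 2.04% and 2.30%.

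A 24 h rhythm was tested in each age within its own deposited table, by a cosine and a sine fitted with limma. None of the 78 members was called in old macrophages and 1 was called in young at an adjusted p under 0.05. Over all genes 0.308% were called in old and 3.62% in young macrophages. At an unadjusted p under 0.05 there were 15 members (19.2%) in old and 8 (10.3%) in young macrophages. The shares over all genes at that threshold were 9.01% in old and 17.2% in young. Most members rise and fall together between libraries, so these are not 15 and 8 separate events. EdgeR called none of the members in old, and DESeq2 called 1, Rplp1 (adjusted p = 0.0354), against 36 and 91 of the 12016 genes.

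The call in young macrophages was Rps16, a small subunit protein whose tail reaches the transfer RNA in the peptidyl site. Its 3 deposited values at ZT4 were 406, 367 and 341, and those at ZT16 were 567, 688 and 436. At ZT20 they were 595, 419 and 663. Replicate 3 of ZT16 and replicate 2 of ZT20 were no higher than the upper values of earlier times. The fitted peak-to-trough difference was 0.58 on the log2 scale with a peak at ZT16.8 ± 0.9 h (SE; limma, adjusted p = 0.0436). The call was close to the threshold. It ended in 15 of the 21 fits that left out 1 young library, where the adjusted p by limma ran from 0.0166 to 0.120. It held without replicate 1 of ZT0, replicate 2 of ZT8, ZT12, ZT20 or ZT24, or replicate 3 of ZT16. Without replicate 2 of ZT8 the count rose to 4, with Rpl13 and Rpl3 among those added (limma, adjusted p = 0.0160 and 0.0454). The share of all genes called in that fit was not counted, so this rise has no background to be read against. The call of Rps16 ended also without the libraries of ZT0 (adjusted p = 0.0822 by limma) and without ZT8 (adjusted p = 0.0873 by limma).

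In old macrophages Rps16 was not called (fold 1.46, limma adjusted p = 0.760). The fitted difference was 0.54 on the log2 scale, against 0.58 in young macrophages. A difference in its rhythm between ages was not shown (limma, adjusted p = 0.999). Its deposited values at ZT8 in old macrophages were 55.3, 450.1 and 326, so replicate 1 was far below the rest. At ZT16 they were 280, 326 and 290.0. The mean level over the day was 363 ± 95 rescaled reads in old and 434 ± 95 in young libraries. The log2 difference of -0.31 did not pass the test (limma, adjusted p = 0.0852), and without old ZT8 replicate 1 it was -0.18 (limma, adjusted p = 0.0708). Without old ZT8 replicate 2 it was -0.39 and called (limma, adjusted p = 0.00999), and without old ZT8 replicate 3 it was -0.36 and called (limma, adjusted p = 0.0378).

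In old macrophages the members with the lowest p were Rplp1, Rpl3 and Rpl13. Rpl3 sits beside the peptidyl transferase centre. Rplp1 averaged 18942 ± 2951 in the deposited old table at ZT8 and 13711 ± 845 at ZT16. The fitted fold was 1.33 with a peak at ZT9.17 (limma, adjusted p = 0.242). Rpl3 averaged 1236 ± 69 at ZT8 and 871 ± 210 at ZT20, with a fitted fold of 1.38 and a peak at ZT9.60 (limma, adjusted p = 0.284). Rpl13 averaged 8705 ± 1300 at ZT8 and 5617 ± 645 at ZT20, with a fitted fold of 1.44 and a peak at ZT9.40 (limma, adjusted p = 0.338). In young macrophages the fitted folds of the 3 were 1.09, 1.24 and 1.41, with peaks at ZT11.0, ZT9.31 and ZT7.53. No stated rule set the times whose means are given for old macrophages. The later time differs between the genes, so these gaps carry little weight.

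**Figure D4:**
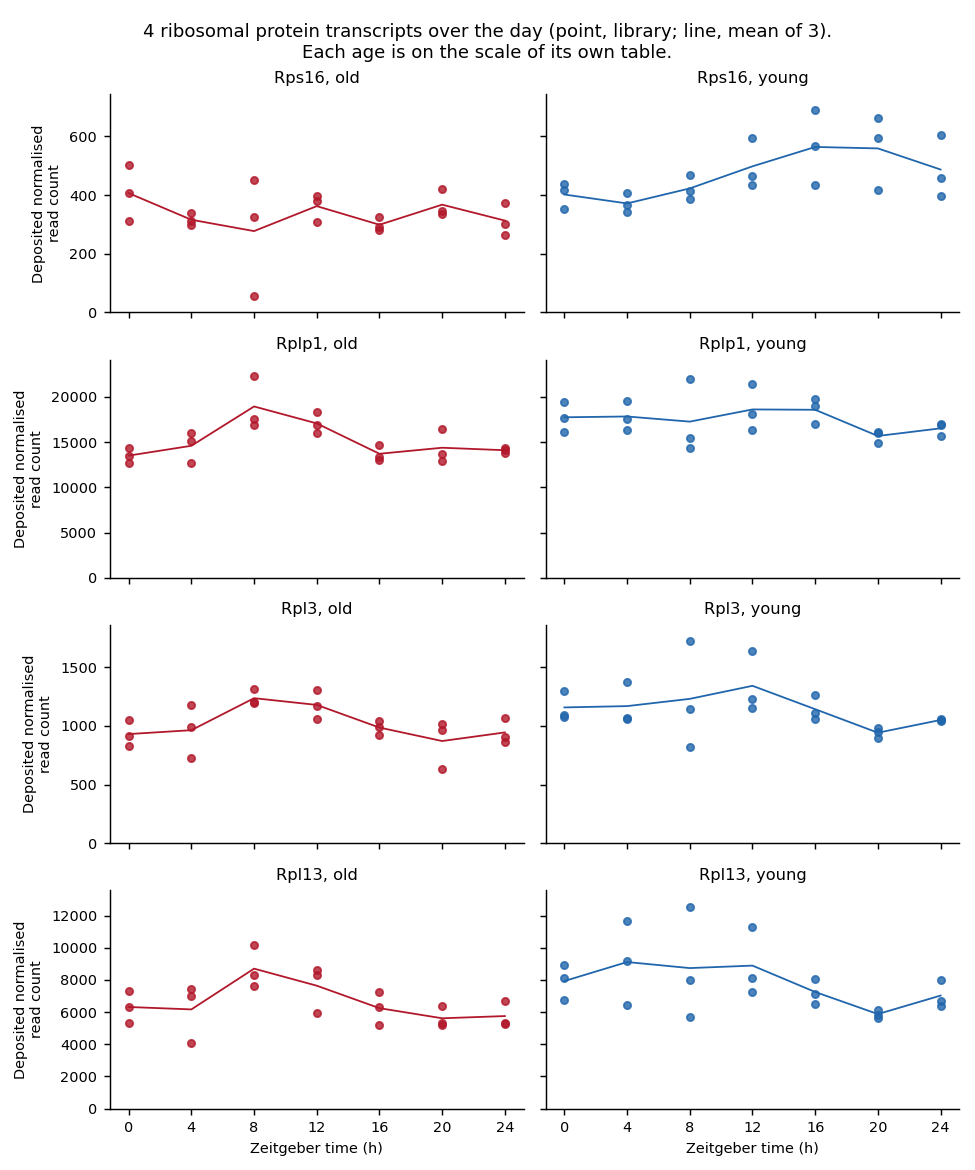
Deposited normalised read counts of Rps16, Rplp1, Rpl3 and Rpl13 by zeitgeber time, old at the left and young at the right, each age on the scale of its own table (point, library; line, mean of 3). Rps16 is highest at ZT16 and ZT20 in young macrophages, and in old macrophages Rplp1, Rpl3 and Rpl13 are highest at ZT8, with libraries of neighbouring times overlapping.

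The 15 members with an unadjusted p under 0.05 in old macrophages all had fitted peaks between ZT6.88 and ZT10.1, with folds of 1.22 to 1.78. In young macrophages 3 of the 8, among them Rpl11 and Rpl13, peaked between ZT6.74 and ZT7.53. The other 5, among them Rps14, Rps16, Rps3a1 and Rps4x, peaked between ZT14.6 and ZT18.8. The 3 early ones were in both groups. Without the ZT8 libraries 1 member had an unadjusted p under 0.05 in old macrophages by limma and 9 had one in young, against 8.56% and 15.5% of all genes. That omission was chosen after the data were seen, and the 15 members have peaks near the time it removes. Without ZT0 there were 11 such members in old macrophages and without ZT24 there were 13, against 7.72% and 8.27% of all genes. The times ZT4, ZT12, ZT16 and ZT20 were not left out in turn. With B and T/NK marker scores as covariates 10 members had an unadjusted p under 0.05 in old and 5 in young macrophages, against 8.96% and 17.1% of all genes.

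Over all 78 members the median fitted peak-to-trough fold was 1.20 in old and 1.14 in young macrophages, against 1.21 over all genes at both ages. It was under 1.5 in 75 members in old and in 74 in young macrophages (96.2% and 94.9%), against 82.3% and 81.4% of all genes. The fitted peak fell between ZT4 and ZT12 in 45 members in old and 37 in young macrophages. Over all genes this span held 4062 of 12016 peaks in old and 4585 of 12113 in young macrophages. The peak fell between ZT12 and ZT20 in 10 members in old and 28 in young, and over all genes in 4262 of 12016 in old and 3752 of 12113 in young. Most of these fits did not pass the test, so the peak time of a single member carries little weight.

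**Figure D5:**
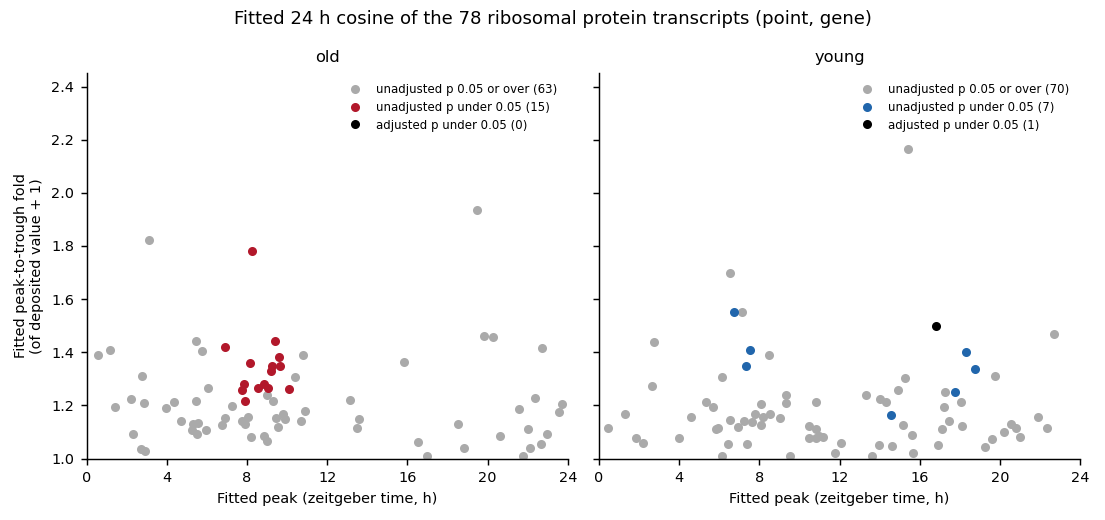
Fitted peak time (h) and peak-to-trough fold of each of the 78 members, old at the left and young at the right, coloured by the p of the rhythm test in that age. The 15 coloured members in old lie between ZT6.88 and ZT10.1, and in young 3 lie near ZT7 and 5 between ZT14.6 and ZT18.8, among them Rps16 (black).

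The rhythms themselves were then set against each other between ages. By limma, no member and none of the 12086 genes (0%) differed in rhythm at an adjusted p under 0.05. At an unadjusted p under 0.05 there were 3 members (3.85%), against 4.09% of all genes. EdgeR called 4 and DESeq2 7 of all genes, and no member. A varying age difference over the 7 times was called in no member and in 3 genes, 0.0248% of those tested. At an unadjusted p under 0.05 it was 1 member (1.28%), against 5.06% of all genes.

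Rps13 and Rps7, both of the small subunit, were among the members of lowest p for a difference in rhythm, with an adjusted p of 0.999 in each by limma. At ZT8 Rps13 averaged 169 ± 32 rescaled reads in old and 149 ± 54 in young macrophages (SD, n = 3 each). At ZT16 it averaged 102 ± 35 in old and 168 ± 27 in young macrophages. Rps7 averaged 66.2 ± 11 rescaled reads at ZT8 in old and 55.5 ± 16 in young macrophages. At ZT20 it averaged 43.2 ± 24 in old and 65.2 ± 30 in young macrophages. For both genes the old mean was the higher one at ZT8 and the lower one at the later time, with SDs as large as most of these gaps. The later time differs between the genes, no stated rule set the times, and other times are not shown, so the crossing carries little weight.

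Most members moved together from library to library within groups. The Pearson correlation of a member's deviation from its group means with the mean deviation of the other members, over 42 libraries, had a median of 0.39. It ran from -0.39 to 0.78, was above 0 in 71 members and above 0.5 in 33. The highest were Rps3 (0.78), Rps9 (0.76) and Rpl22 (0.75). The lowest were Rps27l (-0.39), Rpl29 (-0.29) and Rps25 (-0.19). Each such value shares library and scaling, so it is a description without a test. The same value was not computed for other genes, so these correlations are not shown to be particular to the members.

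The genes outside the set whose profile was most like the mean log2 level of the members over the 42 libraries were Eef1b2, Npm1, Naca, Gas5 and Coro1a, with Pearson r of 0.76, 0.69, 0.67, 0.64 and 0.64. Eef1b2 is an elongation factor subunit, Npm1 a nucleolar protein, Naca a chaperone at the tunnel exit and Gas5 a noncoding host of small nucleolar RNAs. Coro1a is an actin-binding protein of leukocytes. These correlations also share libraries and scaling.

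Counts for the rest of the translation machinery are to be read against the 12% of all genes that were higher and the 11.7% that were lower in old macrophages. All come from the fit without the B and T/NK marker scores. With those scores as covariates 5.29% of all genes were higher and 5.68% lower. Whether the calls named from here on hold in that fit is not given here. Ribosomal proteins outside the name rule, such as Rack1 and Fau, had no call among 5 tested, and elongation factors had none among 8. Rack1, a scaffold on the small subunit, averaged 18902 rescaled reads in old and 18863 in young libraries. Of 29 initiation factors 3 (10.3%) were higher and 2 (6.9%) lower in old macrophages, by limma as for the members. Eif3f had a log2 difference of 0.19 (adjusted p = 0.00125) and Eif4b, the helicase cofactor, 0.17 (adjusted p = 0.0103). Eif4a1, the cap-binding complex helicase, fell by 0.17 (adjusted p = 0.00998) and Eif1ax fell by 0.18 (adjusted p = 0.0180).

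Of 10 other transcripts with a TOP tract 2 (20%) were higher and 1 (10%) lower. Pfdn5, a prefoldin subunit, had a log2 difference of 0.27 (limma, adjusted p = 0.00265), Gas5 had 0.19 (adjusted p = 0.00832), and Snhg5 fell by 0.21 (adjusted p = 0.0495). Of 49 ribosome biogenesis genes 1 was higher and 2 lower. Utp20 fell by 0.33 (limma, adjusted p = 0.000577) and Gar1, of the pseudouridylation complex, fell by 0.23 (adjusted p = 0.00479), while Utp14a had a log2 difference of 0.23 (adjusted p = 0.00699). None of 19 genes of RNA polymerase I transcription was called. Of 21 ribosome quality control genes 1 was higher (Tcf25, log2 difference 0.14, limma adjusted p = 0.00758) and 2 were lower, Ascc3 and Edf1.

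Among 31 genes of the mTORC1 pathway 2 were higher and 3 lower in old macrophages. Sesn1, a sestrin that restrains mTORC1 under stress, averaged 741 ± 172 in old and 1041 ± 182 in young libraries (log2 difference -0.51, limma adjusted p = 2.03e-05), and Sesn3, of the same family, averaged 371 ± 84 in old and 293 ± 67 in young (log2 difference 0.34, limma adjusted p = 0.00172). Ddit4, also called REDD1, fell by 0.48 (limma, adjusted p = 0.0171). In young macrophages Ddit4 was rhythmic, with a peak-to-trough fold of 2.74 and a peak at ZT14.5 (limma, adjusted p = 0.00230). In old macrophages its fold was 1.98 with a peak at ZT11.8 and it was not called (adjusted p = 0.399). The difference in rhythm of Ddit4 is not shown by these 2 results.

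Of 11 genes of the Myc network 1 was lower, Mxd3, a partner of Max that is made in cycling cells. It averaged 9.26 ± 6.4 in old and 27.6 ± 16 in young libraries (limma, adjusted p = 3.91e-05), and the cycling markers were lower in old libraries as well. Mlxipl, a glucose-responsive factor that pairs with Mlx, was rhythmic in both ages. Its fold was 1.67 in old with a peak at ZT0.68 (limma, adjusted p = 0.00847) and 1.44 in young with a peak at ZT2.94 (limma, adjusted p = 0.0156).

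The mitochondrial ribosome, whose proteins are encoded by other nuclear genes, had more calls in the downward than in the upward direction. Of 74 genes tested 2 were higher, which is 2.7%, against 12% of all genes. The 11 that were lower make 14.9%, which is near the 11.7% over all genes. Of the 78 members 6.41% were lower. Mrps6 averaged 382 ± 81 in old and 494 ± 122 in young libraries (log2 difference -0.36, limma adjusted p = 0.000148). Mrpl35 fell by 0.26 (adjusted p = 0.000728), Mrpl33 fell by 0.20 (adjusted p = 0.000979) and Mrps25 fell by 0.23 (adjusted p = 0.00231). The difference between both ribosomes was not tested.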

How the data were processed

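The authors deposited 1 table of normalised read counts per age, a signal per gene that is reads divided by a size factor. Per the submitters' processing notes, STAR, DESeq2 and the build mm10 were used, and neither counter nor annotation is given in the sources used here. Whole reads were recovered for 100% of values within 0.001 of a whole number (4864402 to 15587030 per old and 7433159 to 13574542 per young library). In 3 libraries (old ZT0 replicate 2, old ZT24 replicate 3 and young ZT4 replicate 2) the size factor, 0.991 to 1.01, is so near 1 that the step is less certain. The 42 replicate pairs all differed by more than sampling noise (chi-square per gene 7.82 to 59.1).

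Of 47643 genes, 47224 had a GENCODE M21 symbol. Levels used limma 3.58.1 (limma-trend, R 4.3.3) on log2(rescaled reads + 1) of genes with a mean of at least 10, as 14 group means, so folds of low genes are understated. Rhythms used log2(deposited value + 1) with a 24 h cosine and sine. EdgeR 4.0.16 and DESeq2 1.42.0 on recovered reads, scalings, filters, covariates and omitted libraries were alternatives. Named members are those called, the paralogues with their main copies, Rpsa and the stalk, and those of lowest p where none was called; other lists name up to 4 of lowest p. Tests were also run on simulated data. Genes varied independently there, unlike the members, and the recovery of changes as small as those called is not given here. The members and lists were chosen with earlier results of these data known. Some genes the rule names are not reported here.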

Additional observations from a re-analysis of the deposited data

How the results depend on the processing

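No called difference changed sign under any alternative. In young macrophages the count of rhythmic members was 0 at an adjusted p under 0.01, with no filter (Rps16 adjusted p = 0.107), scaling to the total (0.0560), array weights (0.0551), without ZT0, without ZT8, with 7 time levels and with the replicate block (0.0554). It was 2 by DESeq2 (Rps16 among them) and 0 to 4 with 1 library left out. DESeq2 gave no adjusted p for 2114 of the 12113 genes in young macrophages, 5 of them members, and these count as not called. Over all genes the young share was 6.08% by DESeq2, 1.03% with no filter, 3.54% with scaling to the total and 4.67% with array weights. Without ZT0, without ZT8, with 7 time levels and with the block it was 2.16%, 2.12%, 2.91% and 3.19%, against 3.62% above. Shares with 1 library left out and at an adjusted p under 0.01 were not counted, for rhythms or levels. In old macrophages the count of rhythmic members was 1 by DESeq2, against 0.757% of all genes. Members higher in old numbered 1 at an adjusted p under 0.01 and without ZT8, 0 with the B and T/NK covariates, and 2 to 3 with 1 library left out. Members lower in old numbered 3 at an adjusted p under 0.01, with the covariates and without ZT24, 8 without ZT0, and 4 to 7 with 1 library left out. Over all genes 10.7% were higher and 9.88% lower without ZT8, and 5.29% and 5.68% with the covariates. Without ZT24 these shares were 9.78% and 9.45%, and without ZT0 11.5% and 11.1%, against 12% and 11.7% above. Rpl12 lost its call in 6 of 42 omissions (limma, adjusted p from 0.0501), with no filter (0.0586), without ZT8 (0.0602) and without ZT24. Scaling to the total moved calls over all genes to 1278 higher and 1645 lower, against 1446 and 1417. The replicate numbers do not pair the libraries (correlations across ages -0.0885 to 0.0626, 10 of 42 libraries closest to their own number), and the block left the level counts at 2 and 5. Leaving out ZT8 was chosen after the data were seen. The cause of these shifts was not tested.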
